A study of Mus musculus with 6 samples.

Results

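The 10 genes described here carry Wnt and R-spondin signalling in the fetal ovary. They are the ligands *Wnt4*, *Wnt5a* and *Rspo1*, the R-spondin receptors *Lgr4* and *Lgr5*, the ubiquitin ligases *Znrf3* and *Rnf43*, the signal carrier *Ctnnb1*, the transcription factor *Lef1* and the target gene *Axin2*. They were taken by name, and all 10 were found among the 54532 genes of the deposited table. RNA was sequenced from whole ovaries of C57BL/6 mice at 16.5 days post-coitus (dpc), with 3 control (Ctrl) and 3 *Srsf1* conditional knockout (cKO) libraries described as biological replicates. The cKO mice were *Stra8-GFPCre Srsf1* Fl/Fl, in which Cre removes floxed exons of the splicing factor gene *Srsf1* from germ cells once meiosis begins, so that somatic cells keep the gene. The labels give the Ctrl mice as wild type, and whether they carried a floxed allele or the transgene is not stated in the sources used here. How many ovaries or embryos went into a library is also not given. Values are FPKM, that is reads on a gene per kilobase of its length and scaled to a library size, so they can be compared between genes.

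Wnt proteins are secreted ligands that bind Frizzled receptors, and in the canonical branch this binding spares β-catenin, the product of *Ctnnb1*, from destruction so that it enters the nucleus and works with TCF/LEF factors. R-spondins bind LGR receptors and draw away the ligases ZNRF3 and RNF43, which otherwise remove Frizzled from the cell surface. In the fetal ovary, RSPO1 and WNT4 from somatic cells are known to hold the supporting cells to the ovarian fate, and both also act on germ cells as these enter meiosis.

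None of the 10 genes differed between cKO and Ctrl ovaries beyond the spread between libraries. To compare them, limma was run on log2(FPKM + 1), two-sided, over the 17180 genes whose mean FPKM reached 0.5, and all 10 genes reached it. At an unadjusted p below 0.05, the limit the study used, limma called 0 of the 10 genes, against 4.43% of all genes tested (761 of 17180). After Benjamini-Hochberg adjustment at 0.05, limma called 0 of the 10 and 0 of all genes, and voom on the recovered reads called 0 of the 10 at either limit, with 694 of all genes at the unadjusted limit and 0 after adjustment. The groups overlapped for all 10 genes, whereas they did not overlap for 8.68% of all genes tested. Over the 10 genes the log2 fold change had a median of 0.06, with 7 above and 3 below 0, and that of all genes tested was -0.0091.

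The difference was bounded for each gene. The 95% interval of the fold change of FPKM + 1 ran from 0.851 to 1.26 for *Ctnnb1*, among the narrowest of the 10, and from 0.672 to 1.66 for *Wnt4*, the widest. A change of 2-fold lay outside the interval of each of the 10 genes on this scale, where changes of genes near 0 FPKM look smaller than they are. The values rest on 233 to 13651 reads in a library. At the lowest of these counts, in *Lef1*, counting error was 6.55% of the value, while the libraries of the cKO group varied by 38.8% for that gene (coefficient of variation). With 3 libraries against 3, an exact permutation test, two-sided, cannot give a p below 0.1, and for the 10 genes it gave between 0.3 and 1.

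**Figure D1:**
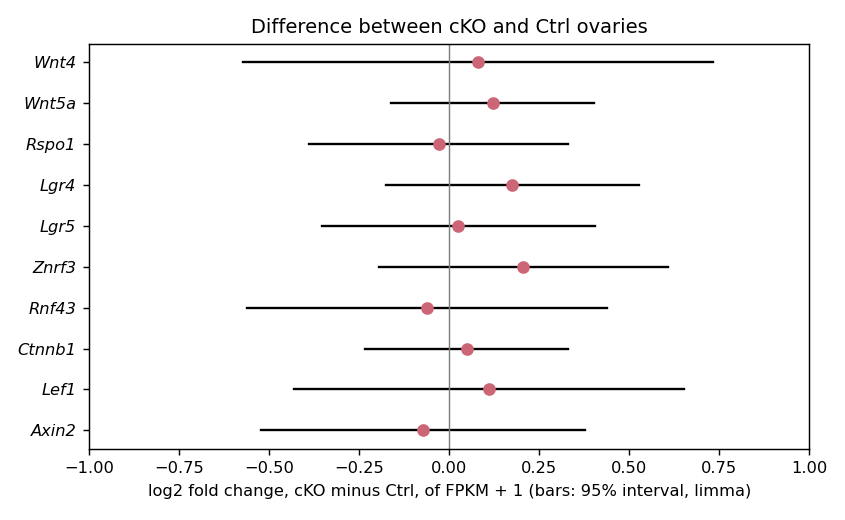
Log2 fold change of FPKM + 1, cKO minus Ctrl, of the 10 genes, ordered by role (points, n = 3 libraries a group), with the 95% interval from limma (bars). The interval of every gene crosses 0, and that of *Wnt4*, from -0.57 to 0.73, is the widest.

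The libraries held between 14212164 and 16784241 reads on genes. *Srsf1* fell from a mean of 71.2 ± 8.61 FPKM in the Ctrl libraries (SD, n = 3) to 35.3 ± 2.49 in the cKO libraries (unadjusted p = 0.000158 and adjusted p = 0.497 in limma), with no overlap. The markers of pregranulosa cells were present throughout, with *Foxl2* between 47.5 and 74.6 FPKM over the 6 libraries, as was the germ cell marker *Ddx4*, between 13.1 and 55.1. The level of germ cell markers varied widely within both groups. As a centred mean log2 over 10 marker genes it was -1.11, -0.32 and 0.49 for Ctrl 1, 2 and 3, and 0.64, -0.50 and 0.78 for cKO 1, 2 and 3. Summed over these markers, FPKM ran from 181 to 679 in Ctrl libraries and from 305 to 863 in cKO libraries, and 2 of the 10 (*Dazl* and *Dppa3*) passed the unadjusted limit, both higher in cKO. Red blood cell markers, summed in the same way, ran from 4860 to 22984 in Ctrl libraries and from 1716 to 10420 in cKO libraries, a sum made up mostly of *Hba-a1* and *Hbb-bs*. Of the 8 red blood cell markers, 6 had a log2 fold change below 0, and 1 passed the unadjusted limit, the embryonic globin gene *Hbb-y*, which was higher in cKO (6.15 to 10.5 FPKM in Ctrl libraries against 23.9 to 99.6 in cKO libraries, unadjusted p = 0.00589 and adjusted p = 0.978 in limma) with no overlap. Because whole ovaries were sequenced, fewer cells of a type and less RNA per cell cannot be told apart.

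Ordered by level, *Ctnnb1* came first, with a mean of 145 FPKM over the 6 libraries, and was above every other of the 10 genes in each library. *Rspo1* (54.7), *Wnt4* (48.5) and *Lgr4* (45.6) followed with overlapping ranges. *Axin2* (17.3), *Wnt5a* (13.7) and *Lgr5* (12.1) formed the next step, in which the ranges of neighbours overlapped. *Rnf43* (5.76), *Znrf3* (4.65) and *Lef1* (2.60) were lowest. The ranges of *Znrf3* and *Lef1* overlapped between libraries, although *Znrf3* was the higher in 6 of 6. Between the steps the ranges did not overlap.

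**Figure D2:**
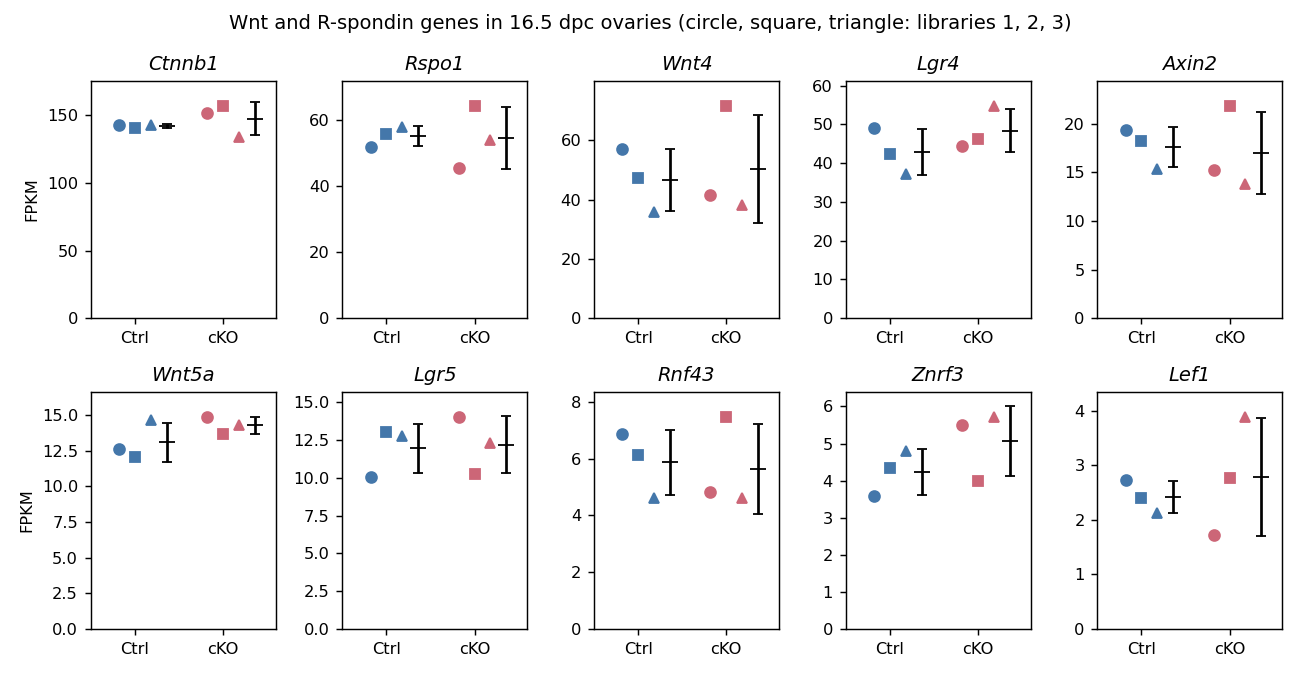
FPKM of the 10 genes in each library (y axes in FPKM, starting at 0), ordered by mean level, with Ctrl in blue and cKO in red, and with circles, squares and triangles for libraries 1, 2 and 3. Black bars give the mean ± SD of the 3 libraries of a group, and the Ctrl and cKO values overlap in every panel.

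Among the ligands, *Wnt4* (ENSMUSG00000036856, chr4:137277489-137299726 of GRCm38, plus strand) varied most. It measured 56.9, 47.2 and 35.8 FPKM in Ctrl 1, 2 and 3, against 41.7, 71.4 and 38.3 for cKO 1, 2 and 3. The highest library, cKO 2, lay above all Ctrl libraries and the other cKO libraries lay within the Ctrl range. The Ctrl mean was 46.6 ± 10.5 (SD, n = 3) and the cKO mean 50.4 ± 18.2, and limma put the log2 fold change at 0.08 (standard error, SE = 0.27, adjusted p = 0.991). This call depended on a covariate. With the germ cell level of each library added to the fit, *Wnt4* was higher in cKO by 0.41 on the log2 scale (SE = 0.13, unadjusted p = 0.0182 and adjusted p = 0.81 in limma), and was then the 1 gene of the 10 past the limit in that fit, in which 5.74% of all genes passed. The covariate is not independent of genotype, since 9 of its 10 marker genes had a log2 fold change above 0 (median 0.48). *Wnt4* ran against that level (Pearson's r = -0.80 over 6 libraries), so this fit does not cleanly separate germ cell level from genotype. Without cKO 2 the log2 fold change of *Wnt4* in the fit with no covariate was -0.19, and without Ctrl 3 it was -0.09.

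*Rspo1* (ENSMUSG00000028871, chr4:124986430-125009099, plus strand), which encodes R-spondin 1, measured 51.7, 55.6 and 57.9 FPKM in Ctrl libraries against 45.3, 64.0 and 54.0 in cKO libraries. The cKO group held both the lowest and the highest library, and the means were nearly equal, at 55.1 ± 3.14 and 54.4 ± 9.38. In limma the log2 fold change was -0.03 with a standard error of 0.15 and an adjusted p of 0.995. *Wnt5a* (ENSMUSG00000021994, chr14:28504750-28527448, plus strand), a ligand best known for signalling without β-catenin, measured 12.6, 12.0 and 14.6 FPKM in Ctrl libraries against 14.8, 13.6 and 14.3 in cKO libraries. Ctrl 3 reached the cKO values and the other Ctrl libraries lay below them, and limma gave a log2 fold change of 0.12 (SE = 0.12, adjusted p = 0.978). Exons of *Wnt5a* overlap those of *Gm2670* on the opposite strand, and since whether counting used strand is not known from the sources used here, its values are uncertain to that extent.

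The receptors of R-spondins were both well measured. *Lgr4* (ENSMUSG00000050199, chr2:109917647-110014257, plus strand) measured 49.0, 42.3 and 37.2 FPKM in Ctrl libraries against 44.4, 46.1 and 54.6 in cKO libraries. Of the cKO libraries, cKO 3 alone lay above all Ctrl libraries, and limma gave a log2 fold change of 0.18 (SE = 0.15, adjusted p = 0.978). *Lgr5* (ENSMUSG00000020140, chr10:115450311-115587780, minus strand), which marks cells of the ovarian surface and of the adjoining supporting cells, measured 10.1, 13.0 and 12.8 FPKM in Ctrl libraries against 14.0, 10.3 and 12.3 in cKO libraries. Ctrl 1 and cKO 2 were the low libraries of the groups, whose means were 12.0 ± 1.64 and 12.2 ± 1.87 (SD, n = 3), with a log2 fold change of 0.03 (SE = 0.16, adjusted p = 0.995 by limma). The third receptor of the family, *Lgr6*, had a mean of 0.713 FPKM over the 6 libraries.

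The ligases that R-spondins restrain were low, and they ran in opposite directions over the libraries. *Rnf43* (ENSMUSG00000034177, chr11:87662722-87735539, plus strand) measured 6.87, 6.13 and 4.63 FPKM in Ctrl libraries against 4.82, 7.46 and 4.63 in cKO libraries. *Znrf3* (ENSMUSG00000041961, chr11:5276324-5444847, minus strand) measured 3.58, 4.33 and 4.80 FPKM in Ctrl libraries against 5.50, 3.99 and 5.71 in cKO libraries. The libraries with the most *Rnf43*, Ctrl 1 and cKO 2, held the least *Znrf3* (Pearson's r = -0.89 and Spearman's rho = -0.77 over 6 libraries, given as a description since values of 1 library share its library size). Limma gave a log2 fold change for *Rnf43* of -0.06 (SE = 0.21, adjusted p = 0.991) and 0.21 for *Znrf3* (SE = 0.17, adjusted p = 0.978), the largest of the 10 in that fit. With the germ cell level as a covariate *Znrf3* was at 0.04, and with single libraries left out it ran from 0.11 without Ctrl 1 to 0.34 without cKO 2.

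*Ctnnb1* (ENSMUSG00000006932, chr9:120929216-120960507, plus strand) encodes β-catenin, which also joins cadherins to the cytoskeleton. It measured 143, 141 and 143 FPKM in Ctrl libraries against 152, 157 and 134 in cKO libraries, so the Ctrl libraries lay between cKO 3 and the other cKO libraries. The SD was 1.53 in Ctrl and 12.1 in cKO, around means of 142 and 148, and limma gave a log2 fold change of 0.05 (SE = 0.12, adjusted p = 0.986). Its exons overlap those of *Ulk4* on the opposite strand and of *Mir7090* on the same strand. *Lef1* (ENSMUSG00000027985, chr3:131110471-131224356, plus strand), the nuclear partner of β-catenin in this set, measured 2.72, 2.40 and 2.12 FPKM in Ctrl libraries against 1.71, 2.77 and 3.88 in cKO libraries. The cKO libraries spanned the whole range, from 233 reads in cKO 1 to 484 in cKO 3, and limma gave a log2 fold change of 0.11 (SE = 0.23, adjusted p = 0.986), or 0.13 at a pseudocount of 0.1. *Lef1* exons overlap *Gm43352* on the opposite strand.

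*Axin2* (ENSMUSG00000000142, chr11:108920349-108950783, plus strand) is a direct target of β-catenin and TCF/LEF that feeds back on the pathway, and it is widely read as a gauge of canonical Wnt activity. It measured 19.4, 18.2 and 15.3 FPKM in Ctrl libraries against 15.3, 21.8 and 13.8 in cKO libraries. As for *Wnt4*, cKO 2 was the highest library, with Ctrl 1 next. The Ctrl mean was 17.6 ± 2.06 and the cKO mean 16.9 ± 4.23, and by limma the log2 fold change was -0.07 (SE = 0.19, adjusted p = 0.987). Exons of *Axin2* overlap *Gm11670* on the opposite strand.

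The 10 genes were also set against the germ cell level of the libraries, and after adjustment over all genes tested none of the 10 relations passed. No other gene passed either, as the smallest adjusted p of the exact permutation test over all genes was 0.198. With 720 orderings its p cannot go below 0.00139, so not passing does not show that a relation is absent. The exact permutation test was two-sided, over the 720 orderings of the libraries, and its limit before adjustment was 0.05. How many of all genes passed that limit was not counted, so passing it is only a description. *Znrf3* rose with the germ cell level in the same order over all 6 libraries (Pearson's r = 0.97, Spearman's rho = 1, permutation p = 0.00139, the smallest it can give, and 0.198 adjusted). *Rnf43* was lower where the level was higher (r = -0.92, rho = -0.77, permutation p = 0.0306 and 0.239 adjusted), as was *Axin2* (r = -0.88, rho = -0.94, permutation p = 0.0347 and 0.245 adjusted). *Wnt4* (r = -0.80, rho = -0.77, permutation p = 0.0514), *Wnt5a* (r = 0.79, rho = 0.66, permutation p = 0.0694) and *Lgr5* (r = 0.78, rho = 0.60, permutation p = 0.0861) did not pass. The other 4 genes had an r between -0.29 and -0.08 and a permutation p between 0.586 and 0.907. Without Ctrl 1 and cKO 3, the libraries farthest from the median germ cell level, r was 0.94 for *Znrf3*, -0.95 for *Rnf43*, -0.94 for *Axin2*, -0.83 for *Wnt4*, 0.77 for *Wnt5a* and 0.75 for *Lgr5*. It moved from -0.08 to -0.93 for *Lef1*, from -0.29 to -0.72 for *Rspo1* and from -0.08 to -0.47 for *Lgr4*, so these relations depend on which libraries are taken. Of all genes tested, 0.553% had an r as high as that of *Znrf3*, while 2.21% had one as low as that of *Rnf43* and 4.20% one as low as that of *Axin2*. The libraries stand on both sides of a gap in the germ cell level, from -0.32 to 0.49, with Ctrl 1, Ctrl 2 and cKO 2 below it. The first principal component, the axis of largest variance over all genes tested (40.5%), split the libraries in the same way. On it Ctrl 1, Ctrl 2 and cKO 2 stood at -42.0, -11.6 and -22.3. Ctrl 3, cKO 1 and cKO 3 stood at 16.3, 33.2 and 26.5. Whether the relations are to germ cells or to this general axis was not tested. The germ cell level takes in genes that also differ between the groups, and each group holds too few libraries for a value of its own.

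**Figure D3:**
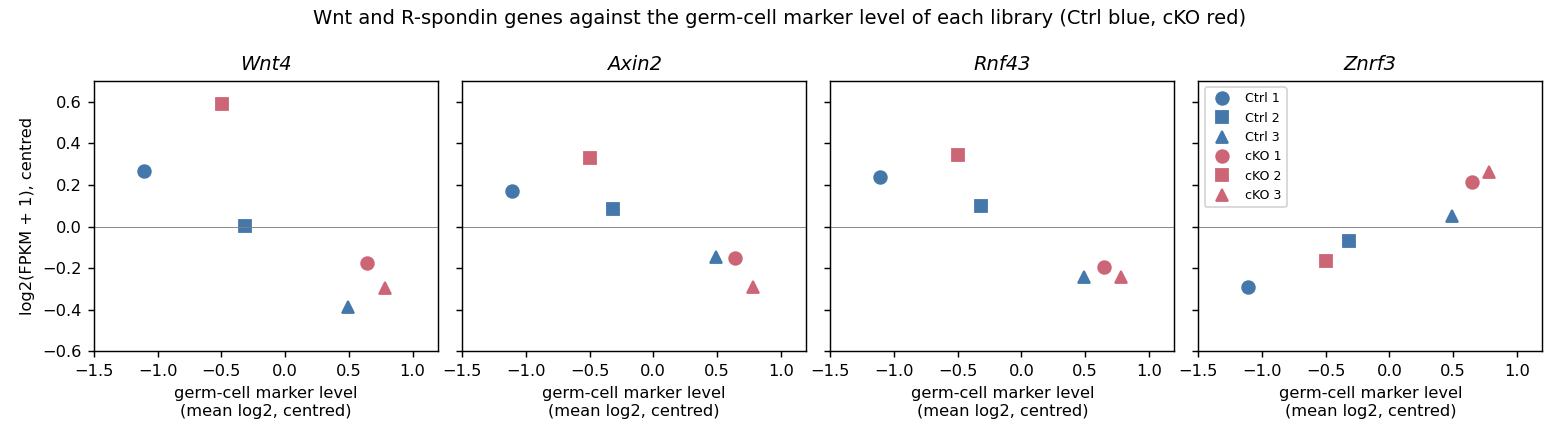
Log2(FPKM + 1) of *Wnt4*, *Axin2*, *Rnf43* and *Znrf3*, centred over the libraries (y axis), against the centred mean log2 level of 10 germ cell markers (x axis), 1 point a library, with Ctrl in blue and cKO in red. *Znrf3* climbs from Ctrl 1, at -1.11 on the x axis, to cKO 3, at 0.78, while the other genes are higher in Ctrl 1, Ctrl 2 and cKO 2 than in the rest.

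The same was done with markers of other cell types. The summed FPKM of the 10 pregranulosa markers was 706, 659 and 592 for Ctrl 1, 2 and 3, and 568, 808 and 661 for cKO 1, 2 and 3, so cKO 2 and Ctrl 1 were the highest there too, and 0 of the 10 passed the unadjusted limit. Against the centred log2 level of these markers, none of the 10 genes passed after adjustment. Here and for the mesonephros list below, the share of all genes that passed at 0.05 before adjustment was not counted. Passing before adjustment is thus only a description. *Lgr5* was lower where the level was higher (r = -0.83, rho = -0.89, exact permutation p = 0.0264 and 0.485 adjusted over all genes). *Rnf43* (r = 0.80, rho = 0.71, exact permutation p = 0.0347 and 0.493 adjusted) and *Wnt4* (r = 0.83, rho = 0.71, exact permutation p = 0.0417 and 0.493 adjusted) were higher there. Of all genes tested, 3.23% had an r as low as that of *Lgr5*. An r as high as that of *Rnf43* was found for 5.83%, and as high as that of *Wnt4* for 4.63%. Without cKO 1 and cKO 2, the libraries farthest from the median of that level, r was -0.66 for *Lgr5*, 0.69 for *Rnf43* and 0.79 for *Wnt4*. For *Rspo1*, r turned from 0.77 (rho = 0.43, exact permutation p = 0.0861) to -0.94 without these libraries, so that relation rests on them. Of the 8 markers of mesonephros and ducts, 6 were tested, of which 5 had a log2 fold change below 0 (median of the 6, -0.31). *Gata3* passed the unadjusted limit, lower in cKO (1.47 ± 0.273 against 0.647 ± 0.163 FPKM, SD, n = 3, unadjusted p = 0.0096 and adjusted p = 0.978 in limma) with no overlap. *Emx2*, at a mean of 42.7 FPKM, made up most of their summed FPKM, which was between 45.4 and 54.7 in Ctrl libraries and between 40.7 and 61.5 in cKO libraries. Against the centred log2 level of this list, *Znrf3* (r = -0.85, rho = -0.94, exact permutation p = 0.0375 and 0.438 adjusted) and *Wnt5a* (r = -0.85, rho = -0.77, exact permutation p = 0.0444 and 0.453 adjusted) passed before adjustment only. Of all genes tested, 4.27% had an r as low as that of *Znrf3* and 4.34% one as low as that of *Wnt5a*. Without Ctrl 1 and Ctrl 2, r was -0.82 for *Znrf3* and -0.24 for *Wnt5a*. In all, 30 such relations were computed for the 10 genes, and the smallest p of the permutation test after adjustment over all genes was 0.198. Over all genes tested, its smallest adjusted p was 0.385 for the pregranulosa level and 0.351 for the mesonephros level, so no gene passed. What part the cell makeup of a library plays in these values was not tested.

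cKO 2 held the highest value of 5 of the 10 genes (*Ctnnb1*, *Rspo1*, *Wnt4*, *Axin2* and *Rnf43*), and of 22.3% of all genes tested. The SD of log2(FPKM + 1) was larger in cKO than in Ctrl for 8 of the 10 genes and for 60.4% of all genes tested, with *Lgr4* and *Wnt5a* as the exceptions. With 3 libraries a group, such an SD is known poorly. The targets *Sp5* and *Nkd1*, singled out after their values were seen, were also highest in cKO 2. Other targets were not, such as *Fst*, highest in cKO 3, and *Notum*, highest in Ctrl 3. Of the 68 genes tested from the pathway lists described below, 21 were highest in cKO 2, or 30.9%. *Sp5* measured 25.5, 16.7 and 14.6 FPKM in Ctrl libraries against 16.2, 32.3 and 11.3 in cKO libraries. *Nkd1* measured 30.3, 29.1 and 27.4 FPKM in Ctrl libraries against 22.3, 37.2 and 19.3 in cKO libraries. For *Nkd1* the other cKO libraries lay below all Ctrl libraries, and for *Sp5* only cKO 3 did.

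The promoters of *Axin2*, *Rnf43* and *Wnt4*, which were all highest in cKO 2, are given with that of *Lef1*, as they could be searched for the TCF/LEF motif through which β-catenin acts. RefSeq promoter windows of GRCm38.p6, from 250 bases before to 50 bases after a start site, matched 7 of the 10 genes with 12 windows. They were searched on both strands for the letters of CTTTGAA, and likewise for the letters of CTTTGAT, for those of CTTTGTA and also for those of CTTTGTT. Over all 32851 windows, 16.9% held at least 1 such motif, and 1 of the 12 windows did, an internal start of *Lef1*, in which the motif lies on the minus strand 147 bases before the start and is given in capitals. Windows of *Rspo1* and *Ctnnb1*, also highest in cKO 2, held no motif and are not printed. The same holds for the *Lgr4* window and for the other windows of *Rnf43* and *Lef1*. The windows printed are chr11:108920099-108920398 for *Axin2*, chr11:87662837-87663136 for *Rnf43*, chr4:137277385-137277684 for *Wnt4* and chr3:131156044-131156343 for *Lef1*, all on the plus strand and 5′ to 3′.
Axin2: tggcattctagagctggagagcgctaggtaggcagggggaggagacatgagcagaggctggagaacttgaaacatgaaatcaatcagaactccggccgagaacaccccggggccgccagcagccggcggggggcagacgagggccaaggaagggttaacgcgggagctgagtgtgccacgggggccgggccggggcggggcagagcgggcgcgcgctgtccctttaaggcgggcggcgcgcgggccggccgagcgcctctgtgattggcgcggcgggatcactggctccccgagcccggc
Rnf43: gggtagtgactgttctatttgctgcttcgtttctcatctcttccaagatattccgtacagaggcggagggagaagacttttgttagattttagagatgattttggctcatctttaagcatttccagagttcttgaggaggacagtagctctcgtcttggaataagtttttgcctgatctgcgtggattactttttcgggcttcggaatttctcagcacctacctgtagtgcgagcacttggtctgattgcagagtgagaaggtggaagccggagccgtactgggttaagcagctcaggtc
Wnt4: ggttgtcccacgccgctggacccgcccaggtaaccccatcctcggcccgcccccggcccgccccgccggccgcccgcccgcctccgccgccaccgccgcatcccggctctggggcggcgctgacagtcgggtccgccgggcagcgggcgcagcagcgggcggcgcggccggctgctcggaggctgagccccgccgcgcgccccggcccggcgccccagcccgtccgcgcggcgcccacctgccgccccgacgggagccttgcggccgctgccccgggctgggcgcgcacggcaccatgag
Lef1: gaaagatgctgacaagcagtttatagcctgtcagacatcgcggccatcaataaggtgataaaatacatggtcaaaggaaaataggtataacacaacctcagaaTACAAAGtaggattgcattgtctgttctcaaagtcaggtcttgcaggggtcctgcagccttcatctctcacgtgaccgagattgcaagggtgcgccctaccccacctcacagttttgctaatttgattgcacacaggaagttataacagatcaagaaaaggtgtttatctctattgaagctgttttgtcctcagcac
The *Wnt4* window was 84.3% G and C, the *Axin2* window 70.0%, the *Rnf43* window 46.7% and the *Lef1* window 43.7%. That no motif was found says only that these letters are not in these windows.

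The 10 genes were set beside the rest of the pathway, in lists written from general knowledge that hold 91 genes with the 10. Of these, 68 passed the minimum FPKM, and limma called 0 of the 68 at the unadjusted limit, against 4.43% of all genes tested. The ratio of the group means of the 68 genes ran from 0.65 in *Sostdc1* to 1.58 in *Frzb*. Over these 68 genes the log2 fold change had a median of 0.03. Their median size, without sign, was 0.10, and that of all genes tested was 0.13.

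**Figure D4:**
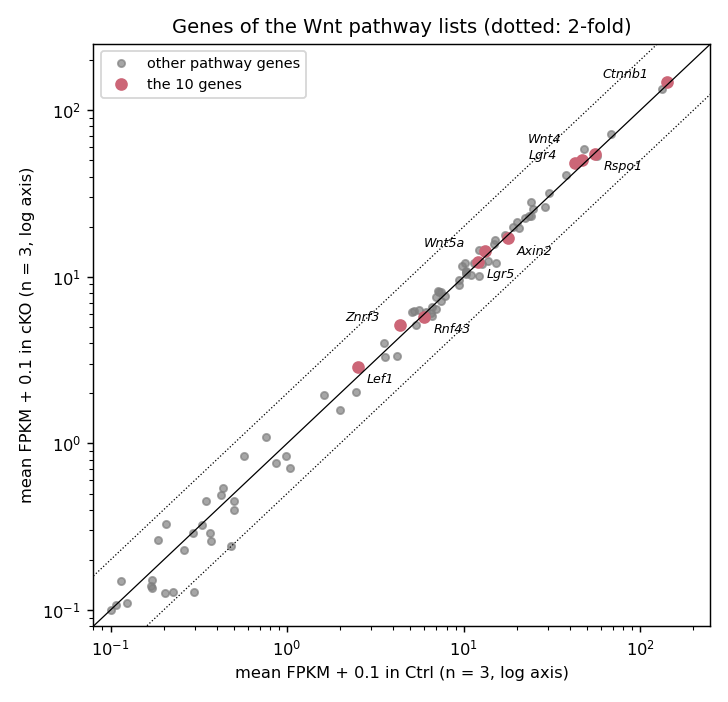
Mean FPKM + 0.1 in cKO (y axis, log scale) against Ctrl (x axis, log scale) of the 91 genes of the Wnt pathway lists, n = 3 libraries a group, with the 10 genes in red and a solid line of equality between dotted lines of 2-fold. All 68 genes that passed the minimum FPKM lie between the dotted lines, with *Ctnnb1* at the top.

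Only 7 of the 19 Wnt ligand genes passed the minimum FPKM. *Wnt6* was the highest, and measured 142, 130 and 126 FPKM in Ctrl libraries against 96.9, 185 and 121 in cKO libraries. It was above *Wnt4* in every library and, as for *Wnt4*, its highest library was cKO 2. *Wnt2b* (17.4), *Wnt5b* (10.7), *Wnt9a* (5.64) and *Wnt11* (3.69) were the others beside *Wnt4* and *Wnt5a*, as means of the 6 libraries, and *Wnt1* had 0 reads in all 6. Of the R-spondins, *Rspo3* had a mean of 0.826 FPKM, while *Rspo2* (0.389) and *Rspo4* (0.124) lay below the minimum, so by FPKM *Rspo1* held nearly all R-spondin RNA. Wnt secretion rests on *Wls*, the carrier that takes Wnts to the surface, at a mean of 22.4 FPKM and a log2 fold change of 0.02.

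Of the 15 receptor genes, 14 were tested, and *Ryk* (24.9 FPKM on average) was the highest. Among the secreted and surface inhibitors, 8 of 16 were tested, led by *Sfrp1* (69.8), which encodes a secreted Frizzled-related protein that binds Wnts. All 14 genes of the destruction complex and cytoplasm, all 9 nuclear partners and all 14 targets were tested. *Pygo2* (23.3) was the highest nuclear partner and *Irx3* (55.0), a gene of pregranulosa cells, the highest target, with log2 fold changes of -0.03 and -0.11. The smallest unadjusted p of the 68 genes in limma was 0.0877, for *Sfrp2*, with a Ctrl mean of 15.2 ± 2.18 FPKM (SD, n = 3) and a cKO mean of 11.9 ± 1.83.

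The groups did not overlap for 5 of the 68 genes, or 7.35%, against 8.68% of all genes tested. These 5 are named after their values were seen. The Frizzled receptor genes *Fzd7* and *Fzd3* and the APC-binding *Amer1* lay higher in cKO, and *Fzd6* and the inhibitor *Sostdc1* lower. *Fzd7* measured 11.0, 12.1 and 13.2 FPKM in Ctrl libraries against 13.3, 14.1 and 16.0 in cKO libraries. *Fzd6* measured 4.03, 3.82 and 4.48 FPKM in Ctrl libraries against 2.64, 3.44 and 3.64 in cKO libraries. Neither difference passed in limma (log2 fold changes of 0.24 and -0.27, adjusted p = 0.978 for both).

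Without a minimum FPKM, 2 of 90 pathway genes passed the unadjusted limit in limma, where 3.94% of all genes did. Both were rare and lower in cKO. *Dkk2*, which encodes a secreted antagonist of the Wnt co-receptors, had 24, 20 and 25 reads in the Ctrl libraries against 11, 6 and 7 in the cKO libraries (adjusted p = 0.882 by limma). *Wnt7a* had 7, 7 and 5 reads against 3, 0 and 1. Without cKO 2, 5 of the 68 pathway genes passed (*Apc* higher, *Bcl9l*, *Fzd8*, *Nkd1* and *Sfrp2* lower in cKO), or 7.35%, where 14.5% of all genes passed, and 0 of the 10 genes did.

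By likeness over the 6 libraries, *Gm7618*, *Ube2e2* and *Zkscan17* came closest to *Rspo1* among all genes tested (Pearson's r between 0.991 and 0.996), and *Dctn2*, *Trim14* and *Rrad* came closest to *Axin2* (r between 0.996 and 0.999). With only 6 libraries many genes reach such values. An r above 0.9 was found with 112 genes for *Rspo1* and with 932 genes for *Axin2*, and these values are descriptions of the libraries.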

How the data were processed

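Total RNA of 16.5 dpc ovaries was sequenced as 150 bp paired-end reads in 3 Ctrl and 3 cKO libraries. According to the methods of the study, the authors aligned the reads with HISAT2 2.0.5 (mm10), counted them with featureCounts and deposited FPKM values per gene. The extraction protocol of the labels names another tissue, whereas their tissue field gives ovary. FPKM was multiplied by gene length and divided by the worth of 1 read in each library to recover reads, and 100% of values were whole within 0.05 of a read. The groups were tested by limma 3.58.1 under R 4.3.3 (log2(FPKM + 1), mean FPKM of at least 0.5, intensity trend, genotype as the only term), and the fit was tested on simulated libraries. Python 3.11.15 with scipy 1.17.1 was used otherwise. Genes were named by a rule, which takes the 10 genes, pathway genes past the limit, the highest gene of each pathway list and *Srsf1*. It also takes markers of a cell type list whose summed level moved with the groups, and the 3 genes closest to *Rspo1* and to *Axin2*. Other genes of the pathway and marker lists that are named fall outside this rule and were chosen after their values were seen. The 10 genes, the lists and the tests were chosen with earlier results of these data known. Alternatives were other pseudocounts, minima, scalings, no intensity trend, voom, the replicate number as a block, the germ cell level as a covariate, and each library left out.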

Additional observations from a re-analysis of the deposited data

How the results depend on the processing

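Limma called 0 of the 10 genes under every alternative except the germ cell covariate, which called 1 (*Wnt4*), and it called 0 of the pathway genes except 2 without a minimum FPKM, 1 with that covariate and up to 5 with 1 library left out (range 0 to 5). Without single libraries, between 0 and 2 of the 10 genes had groups that did not overlap. The share of all genes without overlap was not computed for these smaller sets, so the count is only a description. With fewer libraries, groups fail to overlap more easily. With the covariate, the log2 fold change turned to 0.012 for *Rspo1*, -0.11 for *Lgr5*, 0.17 for *Rnf43*, 0.12 for *Axin2*, 0.16 for *Wnt6*, 0.10 for *Pygo2* and 0.0038 for *Irx3*. The cause was not tested. With each library left out in turn it ran from -0.19 to 0.25 for *Wnt4*, from -0.15 to 0.094 for *Rspo1*, from -0.084 to 0.13 for *Lgr5*, from -0.25 to 0.043 for *Rnf43*, from -0.26 to 0.053 for *Axin2*, from -0.092 to 0.33 for *Lef1*, from -0.29 to 0.17 for *Wnt6*, from -0.042 to 0.11 for *Wls*, from -0.026 to 0.15 for *Ryk*, from -0.051 to 0.26 for *Sfrp1*, from -0.17 to 0.077 for *Pygo2* and from -0.31 to 0.051 for *Irx3*. The direction did not turn in these settings for *Wnt5a*, *Lgr4*, *Znrf3* or *Ctnnb1*. With the replicate block, 0 of the 10 genes passed, and 434 higher and 247 lower genes did over all genes, where 460 and 301 did without it. Whether libraries with the same number shared more than that number is not known. Their deviations from the group means correlated at -0.39, -0.03 and 0.12, and no Ctrl library matched best the cKO library of its own number. Such correlations cannot exclude a shared origin. With 3 libraries a group, small differences could have been missed. The intervals given above show which differences the values still allow, and are not limits of detection.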
